A study of Mus musculus with 6 samples.

Results

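Chemokine ligands are small secreted proteins that draw white blood cells towards the cells that release them. They were described here in primary mouse prostate cells that lacked p53, with the retinoblastoma gene Rb1 either intact or deleted. Members were the genes whose current symbol is Ccl or Cxcl followed by a digit, Cx3cl1 or Xcl1, and receptors were left out. The array carried 41 probes for 34 such genes, of 39429 probes and 20832 named genes in all. Of the 34 genes, 22 were tested, each well above background on all 6 arrays. The other 12 did not pass the filter on dim probes and are accounted for below. Cxcl11 was not analysed here, because no probe was matched to it.

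All cultures were p53-/- Rbf/f cells, grown with the growth factors bFGF and bEGF in Prostacult medium that lacked FBS. The 3 Rb intact cultures received an adenovirus carrying lacZ, and the 3 Rb deleted cultures an adenovirus carrying Cre recombinase, which turned Rbf/f into Rb∆f/∆f. RNA was taken 48 hours after infection, and each culture was hybridised to its own 1-colour array. The series design speaks of independent experiments, but the labels do not say which animals gave the cells, so p-values measure the spread between these samples. The virus and the Rb status cannot be told apart in this design.

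Arrays lay on 2 slides. All 3 Rb intact arrays shared the first slide with Rb deleted 1, while Rb deleted 2 and 3 were on the other. The share of probes well above background ran from 58.7% to 63.3%, and 0 spots were saturated. Rb1 itself, the deleted gene, lay at -1.15, -1.13 and -1.16 in Rb intact and at -3.12, -3.11 and -3.07 in Rb deleted, so its signal fell to 25.8% (limma adjusted p = 8.14e-05). The labels name the tissue as prostate. The epithelial adhesion genes Epcam and Cdh1 and the luminal factor Hoxb13 were not well above background on any array, while basal Trp63 and luminal Krt18 were on all 6. All 8 fibroblast markers were also well above background on all 6 arrays, with a level of 4.60 to 4.83 for the collagen gene Col1a1 and 6.51 to 6.74 for Dcn. In such bulk samples, fewer cells of a type and less RNA per cell cannot be told apart.

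Chemokines are named for the spacing of the first conserved cysteines, adjacent in CC ligands (Ccl) and parted by a residue in CXC ligands (Cxcl). CC ligands mainly attract monocytes, eosinophils and T cells. CXC ligands that carry the ELR motif, glutamate-leucine-arginine, attract neutrophils, and Cxcl9, Cxcl10 and Cxcl11, which lack it and are induced by interferons, attract activated T cells through the receptor Cxcr3. Many of these genes are switched on by NF-kB, by interferon regulatory factors or by both, and the pocket protein Rb1 is best known for restraining E2F transcription factors.

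Promoter sequences are shown for genes whose results are described below. They are RefSeq sequences of build GRCm38.p6, matched by symbol, and were at hand for 24 of the 34 genes. Ccl5, Ccl4, Ccl2, Ccl7 and Ccl11 were among the genes without a sequence, so no motif was searched in them. Each is the 250 bases before the gene's start, 5′ to 3′ on the gene's strand. Cxcl10, which rose, is shown with an interferon-stimulated response element (GAAA, any 2 bases, GAAA), an NF-kB site (GGGA, any 2 bases, TTCC) and an AP-1 site (TGANTCA) in capitals (chr5:92348890-92349139, minus strand).
Cxcl10: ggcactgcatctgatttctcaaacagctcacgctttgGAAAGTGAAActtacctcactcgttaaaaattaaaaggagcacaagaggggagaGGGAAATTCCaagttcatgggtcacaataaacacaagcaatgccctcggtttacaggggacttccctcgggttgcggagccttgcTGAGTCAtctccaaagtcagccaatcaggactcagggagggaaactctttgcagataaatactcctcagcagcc

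The ELR genes Cxcl1, Cxcl2 and Cxcl3 each held an NF-kB match in this window, printed here with its flanks because Cxcl1 fell while Cxcl2 and Cxcl3 did not pass the threshold. The match is in capitals, and that of Cxcl10 is added for comparison. The windows are chr5:90891164-90891193 for Cxcl1, chr5:90903792-90903821 for Cxcl2 and chr5:90786018-90786047 for Cxcl3, all on the plus strand, and chr5:92349029-92349058 on the minus strand for Cxcl10.
Cxcl1: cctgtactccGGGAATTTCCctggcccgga
Cxcl2: cctgagctcaGGGAATTTCCctggtccccg
Cxcl3: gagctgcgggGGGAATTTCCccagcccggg
Cxcl10: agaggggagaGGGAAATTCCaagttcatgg

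The capitals in Cxcl1, Cxcl2 and Cxcl3 are the same 10 letters, and their first base lies 71, 97 and 73 bases before the start. Ccl12 and Ccl8 are neighbours on chromosome 11 that both fell, and their upstream windows are shown with the TATAAA box in capitals (chr11:82101595-82101844 and chr11:82114935-82115184, plus strand). Aligned end to end, the windows were identical at 150 of 230 aligned positions, or 65.2%.
Ccl12: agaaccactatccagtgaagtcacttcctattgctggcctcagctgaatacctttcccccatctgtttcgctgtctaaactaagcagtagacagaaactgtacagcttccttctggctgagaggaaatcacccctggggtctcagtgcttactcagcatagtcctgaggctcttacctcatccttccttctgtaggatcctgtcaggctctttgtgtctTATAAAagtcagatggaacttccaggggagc
Ccl8: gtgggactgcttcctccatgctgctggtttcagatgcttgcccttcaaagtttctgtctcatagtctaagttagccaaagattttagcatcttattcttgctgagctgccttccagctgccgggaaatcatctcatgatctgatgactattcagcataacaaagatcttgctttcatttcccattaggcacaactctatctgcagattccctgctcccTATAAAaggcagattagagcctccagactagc

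The same motifs were searched on both strands of all 32851 RefSeq promoter windows. The shares count windows, while a chemokine ligand gene was counted if any window under its symbol held the motif. The interferon element was found in 2.98% of all windows and in 3 of the 24 chemokine ligand genes, Cxcl10, Cxcl14 and Ccl19. The NF-kB site was in 1.21% of all windows and in 5 of the 24 genes, Ccl1, Cxcl1, Cxcl2, Cxcl3 and Cxcl10. AP-1 sites were in 6.75% of windows and in 3 of these genes, Cxcl10, Ccl9 and Ccl27a. An E2F site (TTTCCCGC or TTTGGCGC) was in 1.30% of windows and in 0 of the 24 genes. TATAAA was in 12.4% of windows and in 9 of the 24 genes. These counts describe letters only and give no site that a factor was shown to bind. They say nothing of genes without a sequence, among them Ccl5, Ccl4, Ccl2, Ccl7 and Ccl11.

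Between Rb intact and Rb deleted cells, chemokine ligands moved in both directions. Ccl5, Ccl4, Cxcl10 and Ccl17 rose, by 1.72-fold to 3.42-fold, and Ccl12, Ccl8, Ccl9, Ccl11, Ccl27a and Cxcl1 fell, to between 41.3% and 73.2% of the intact signal. Thus 4 of the 22 tested genes rose, where 9.67% of all 13728 tested genes did, and 6 fell, where 10.8% of all genes did. The median difference was -0.04 over the 22 genes and 0.01 over all tested genes. Each difference is the Rb deleted mean less the Rb intact mean, in log2 units, with the SE of the limma fit, and rose and fell mean a Benjamini-Hochberg adjusted p under 0.05 over all tested genes. The groups did not overlap for 14 of the 22 genes, beside 45.2% of all tested genes. The exact two-sided permutation p for a single gene cannot go below 0.1 with 3 against 3 arrays, and each of the 10 called genes was at that value.

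**Figure D1:**
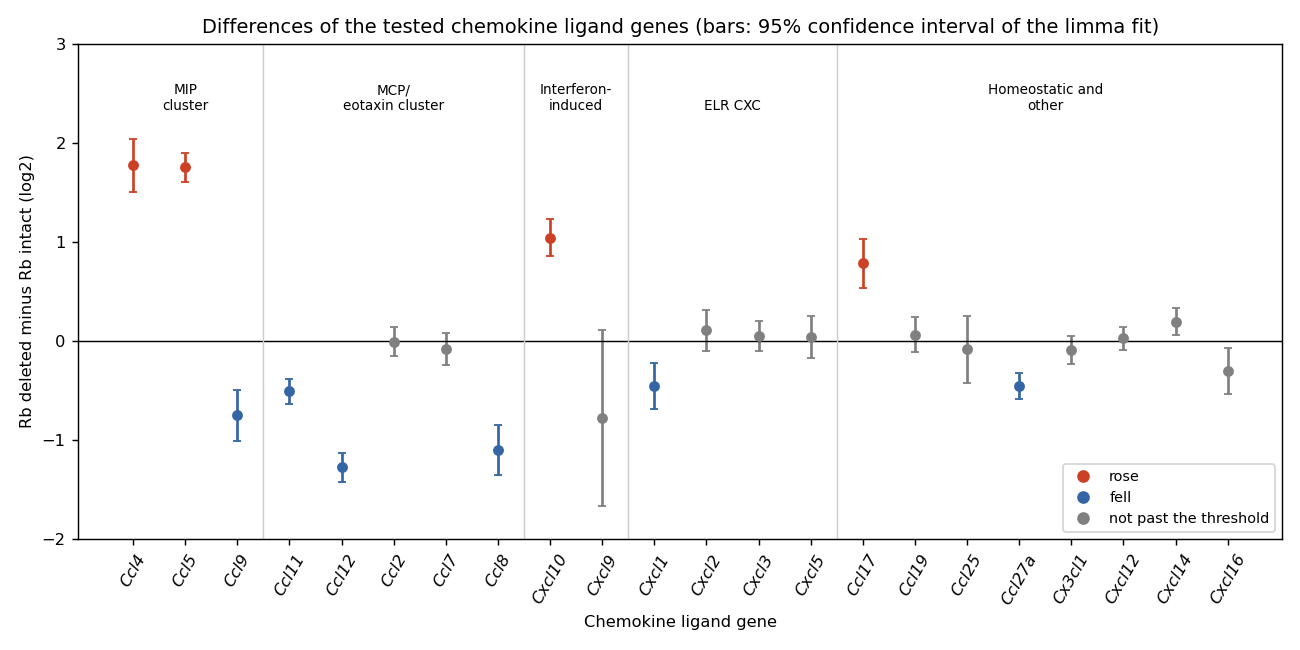
Difference of each tested chemokine ligand gene, Rb deleted minus Rb intact (log2), with the 95% confidence interval of the limma fit; red marks genes that rose, blue those that fell and grey those not past the threshold. Ccl4 and Ccl5 lie near 1.77 and 1.75, Ccl12 and Ccl8 near -1.28 and -1.10, and Cxcl9 has the widest interval.

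Ccl4, Ccl5 and Ccl9 lie together with Ccl3 and Ccl6 in the macrophage inflammatory protein (MIP) cluster on chromosome 11. Ccl5, or RANTES, attracts T cells and monocytes. Levels are log2 intensity minus the array's 75th percentile. Ccl5 stood at 2.05, 2.01 and 2.14 in the Rb intact arrays and at 3.80, 3.87 and 3.80 in the Rb deleted arrays. All 3 Rb deleted arrays were above all 3 Rb intact arrays, and the difference was 1.75 ± 0.06 (3.37-fold, limma adjusted p = 0.000145).

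Ccl4, or MIP-1 beta, attracts monocytes and T cells. Its level was -4.89, -5.07 and -5.27 in Rb intact and -3.41, -3.32 and -3.19 in Rb deleted. The groups were well apart, and Ccl4 rose by 1.77 ± 0.11 (3.42-fold, limma adjusted p = 0.000356). With a normexp background model on median spot signal the difference of Ccl4 was 1.22, still past the threshold. Ccl9, also called MIP-1 gamma, attracts cells that carry Ccr1. It ran the other way, from -3.59, -3.51 and -3.85 in Rb intact to -4.53, -4.36 and -4.32 in Rb deleted. Ccl9 fell by 0.75 ± 0.11, to 59.5% of the intact signal (limma adjusted p = 0.00581). With the same normexp model the difference of Ccl9 was -0.44, and it was still past the threshold.

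The other genes of the cluster could not be compared. Ccl3, or MIP-1 alpha, the neighbour of Ccl4, cleared the background on 0 of the 6 arrays, as did Ccl6. Of the 5 genes of the cluster, 2 thus rose, 1 fell and 2 were not tested, where 9.67% of all tested genes rose and 10.8% fell.

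The monocyte chemoattractant and eotaxin genes form a second cluster on the same chromosome, in the order Ccl2, Ccl7, Ccl11, Ccl12, Ccl8 and Ccl1. Ccl2, or MCP-1, draws monocytes through Ccr2. Its level was 7.31, 7.22 and 7.32 in Rb intact and 7.32, 7.32 and 7.20 in Rb deleted. The groups overlapped, and the difference was -0.01 ± 0.06 with a 95% confidence interval of -0.15 to 0.14 (limma adjusted p = 0.961). Ccl7, or MCP-3, also a Ccr2 ligand, stood at 6.49, 6.30 and 6.39 in Rb intact and at 6.36, 6.29 and 6.28 in Rb deleted. Those groups overlapped too, with a difference of -0.08 ± 0.07 and an interval of -0.24 to 0.08 (adjusted p = 0.408).

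The next 3 genes in the order fell. Ccl11, or eotaxin, which attracts eosinophils through Ccr3, went from 2.64, 2.53 and 2.60 to 2.07, 2.10 and 2.08. It fell by 0.51 ± 0.05, to 70.3% (limma adjusted p = 0.00197), with no overlap. Ccl12, or MCP-5, a monocyte attractant, went from -1.72, -1.77 and -1.81 in Rb intact to -2.96, -3.06 and -3.10 in Rb deleted. Ccl12 fell by 1.28 ± 0.06, to 41.3% (adjusted p = 0.000198), the lowest remaining share among the tested chemokine ligand genes.

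Ccl8, or MCP-2, stood at 3.21, 3.40 and 3.58 in Rb intact and at 2.24, 2.39 and 2.26 in Rb deleted. The lowest Rb intact array was well above the highest Rb deleted array, and Ccl8 fell by 1.10 ± 0.10, to 46.7% (limma adjusted p = 0.00143). Ccl1, the last gene of the order, was not tested. Of the 5 tested genes of this cluster 3 fell and none rose, beside 10.8% and 9.67% of all tested genes, and the median difference was -0.51.

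**Figure D2:**
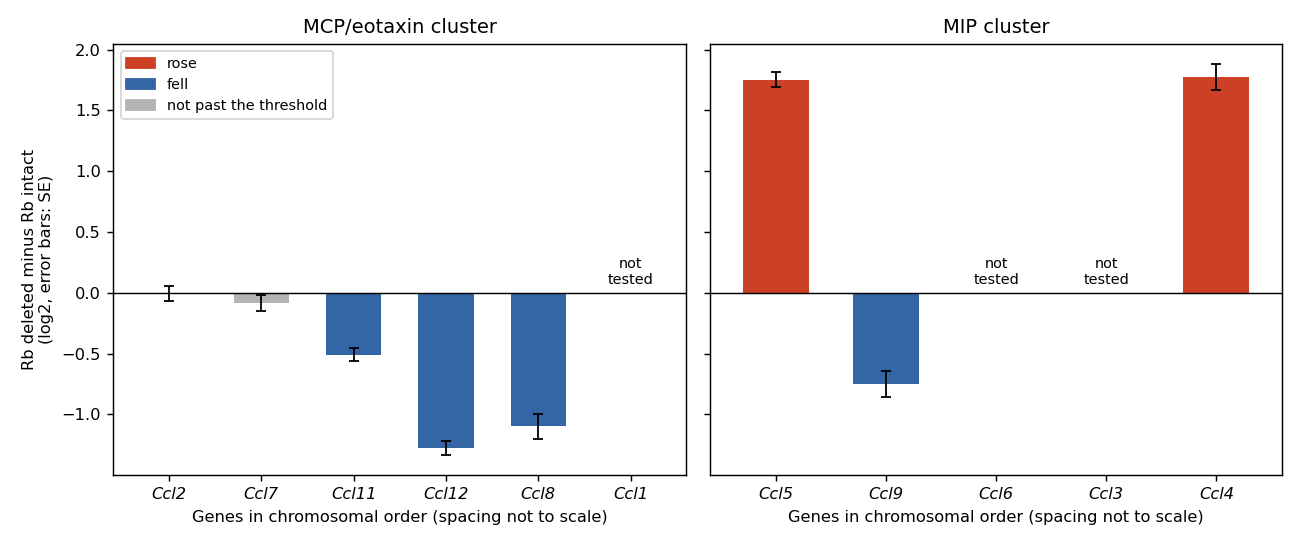
Difference of each gene in the MCP and eotaxin cluster (left) and the MIP cluster (right), Rb deleted minus Rb intact (log2, error bars SE), in chromosomal order with spacing not to scale. Ccl2 and Ccl7 lie near 0 beside Ccl11, Ccl12 and Ccl8, which fell, and Ccl9 fell between Ccl5 and Ccl4, which rose.

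Whether neighbours differed in their change was compared for every pair of tested genes within each of the groups named here, 20 pairs in all, with an exact two-sided permutation test over arrays. For 14 of the 20 pairs the exact p reached its floor of 0.1, or 0.143 after Benjamini-Hochberg adjustment over the 20, so no pair could pass 0.05. Ccl12 changed by 1.27 less than Ccl2 in log2, and by 1.19 less than Ccl7. The change of Ccl11 was 0.50 below that of Ccl2 and 0.42 below that of Ccl7. Ccl4 changed by 2.52 more than Ccl9, and Ccl5 by 2.50 more (exact p = 0.1 each). Ccl4 and Ccl5 differed in their change by 0.02, within the spread between arrays (exact p = 1). With the normexp background model Ccl4 rose by 1.22 and Ccl5 by 1.68, so their closeness depended on the background handling.

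Cxcl10, or IP-10, is an interferon-induced attractant of activated T cells. Its level was 2.86, 2.65 and 2.62 in Rb intact and 3.78, 3.78 and 3.72 in Rb deleted. All Rb deleted arrays were higher, and Cxcl10 rose by 1.05 ± 0.08 (2.06-fold, limma adjusted p = 0.000552). Cxcl9, or MIG, its neighbour and a ligand of the same receptor, had probes that disagreed. The probe with the higher mean gave -4.80, -3.48 and -4.88 in Rb intact and -5.19, -5.14 and -5.16 in Rb deleted. Rb intact 2 stood apart there, the difference was -0.77 ± 0.37, and it did not pass the threshold (adjusted p = 0.187). Without Rb intact 2 the difference of that probe was -0.32 (adjusted p = 0.0357). The other Cxcl9 probe lay between -5.43 and -5.15 on all 6 arrays, with a difference of 0.14 ± 0.08 (adjusted p = 0.25 over all probes) and overlapping groups.

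Among the 4 tested ELR ligands, which attract neutrophils through Cxcr2, Cxcl1 was the one called, beside 10.8% of all tested genes that fell. Cxcl1, or KC, stood at 2.48, 2.17 and 2.18 in Rb intact and at 1.80, 1.82 and 1.87 in Rb deleted. Every Rb deleted array was lower, and Cxcl1 fell by 0.45 ± 0.10, to 73.2% (limma adjusted p = 0.0224). Cxcl1 was no longer past the threshold without any single one of the Rb deleted arrays, with adjusted p-values of 0.0732 to 0.0891, nor without a filter on dim probes (0.0682).

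Cxcl2, or MIP-2, lay at -1.64, -1.48 and -1.44 in Rb intact and at -1.47, -1.28 and -1.49 in Rb deleted. Cxcl3 was at -3.54, -3.40 and -3.38 and then at -3.38, -3.42 and -3.36. Cxcl5, or LIX, was at 4.71, 4.42 and 4.51 and then at 4.63, 4.51 and 4.62. In these 3 genes the groups overlapped.

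The differences were 0.11 ± 0.09 for Cxcl2, 0.05 ± 0.06 for Cxcl3 and 0.04 ± 0.09 for Cxcl5, and the 95% intervals reached at most 0.32 upward and -0.18 downward. The limma adjusted p-values were 0.397, 0.587 and 0.776. Cxcl15 was not well above background on any array. The median over the 4 tested ELR genes was 0.05. The change of Cxcl1 was 0.56, 0.50 and 0.49 below that of Cxcl2, Cxcl3 and Cxcl5, each with the smallest exact p of 0.1.

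**Figure D3:**
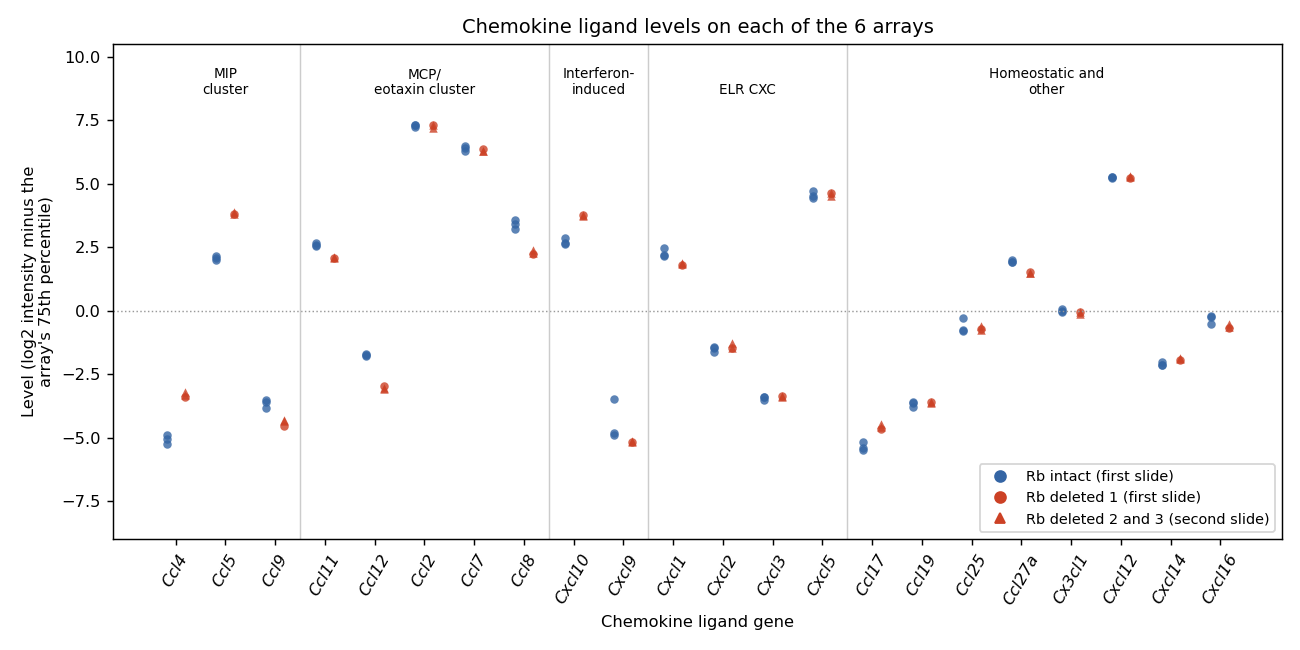
Level of each tested chemokine ligand gene on every array (log2 intensity minus the array's 75th percentile), with Rb intact in blue and Rb deleted in red; circles are arrays of the first slide and triangles those of the second. Ccl2 lies between 7.20 and 7.32 on all 6 arrays, and Ccl5, Ccl4 and Cxcl10 have all red points above the blue ones. A level depends on the probe as well as the transcript, so levels of different genes are not comparable.

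Of the 8 other tested ligands, 1 rose and 1 fell, near the 9.67% and 10.8% of all tested genes, with a median difference of -0.03. Ccl17, or TARC, attracts T cells that carry Ccr4. It lay at -5.18, -5.49 and -5.41 in Rb intact and at -4.68, -4.60 and -4.45 in Rb deleted. The groups did not overlap, and Ccl17 rose by 0.78 ± 0.10 (1.72-fold, limma adjusted p = 0.00443). Its neighbour Cx3cl1, or fractalkine, a membrane-bound ligand, gave -0.09 ± 0.06 (adjusted p = 0.315). Ccl22, the next Ccr4 ligand, was not well above background on any array.

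Ccl27a, a skin-associated attractant of T cells, had 3 probes. The probe with the highest mean went from 2.00, 1.92 and 1.91 to 1.53, 1.50 and 1.46, and Ccl27a fell by 0.45 ± 0.05, to 73.1% (limma adjusted p = 0.00305). A further probe gave -0.42 ± 0.06 (adjusted p = 0.00798 over all probes), with no overlap. The last of its probes gave -0.01 ± 0.05 (adjusted p = 0.908) and overlapping groups, so the fall describes part of the probes. The gene overlaps Il11ra1 and has a near copy, Ccl27b, and cross-hybridisation with either was not tested.

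Cxcl12, or SDF-1, the homeostatic ligand of Cxcr4, had probes for different RefSeq transcripts. The probe with the higher mean lay at 5.24, 5.23 and 5.24 in Rb intact and at 5.23, 5.27 and 5.29 in Rb deleted, with a difference of 0.03 ± 0.05 (limma adjusted p = 0.716). The other probe lay at 4.12, 4.11 and 4.15 in Rb intact and at 3.82, 3.87 and 3.62 in Rb deleted. There the groups did not overlap, and its signal fell by 0.36 ± 0.08, to 78.2% (limma adjusted p = 0.034 over all probes). In that fit, 7.1% of all 23045 passing probes rose and 8.8% fell. Of the 41 chemokine ligand probes, which include dim ones that did not pass the filter, 12 were called. They were the probes of the 10 called genes, the further Ccl27a probe that fell and the other Cxcl12 probe.

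Several ligands were near the threshold or flat. Cxcl14, a ligand of epithelium and stroma, gave 0.20 ± 0.06 (limma adjusted p = 0.0546), with all Rb deleted arrays above the Rb intact ones. The membrane-bound ligand Cxcl16 gave -0.31 ± 0.10 (adjusted p = 0.0701), with all Rb deleted arrays below. Without Rb intact 1 both were past the threshold, at 0.23 (adjusted p = 0.0114) and -0.40 (adjusted p = 0.00786). Calls grew over all genes in that fit, where 2625 of 13728 rose and 2487 fell, beside 1327 and 1479 with all 6 arrays. Ccl25, a thymus and gut ligand, gave -0.08 ± 0.14 (adjusted p = 0.71), and Ccl19, a Ccr7 ligand with pseudogene copies, gave 0.06 ± 0.07 (adjusted p = 0.551).

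The 12 members that were not tested were Ccl1, Ccl3, Ccl6, Ccl20, Ccl22, Ccl24, Ccl26, Ccl28, Cxcl13, Cxcl15, Cxcl17 and Xcl1. For 9 of them no array was well above background, which gives no fold and does not show that the transcript is absent. Each of Ccl1, Ccl24 and Ccl28 was well above background on 1 array. For Ccl24 this was Rb intact 1, at -4.64, beside -8.30 to -6.75 on the other arrays.

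Only the first slide holds both groups, so the slide bears on every result above. It bears equally on the receptors, regulators and markers below, for which no fit with slide as a block is given. With slide as a block, Ccl5, Ccl4 and Cxcl10 rose and Ccl12, Ccl8, Ccl11 and Ccl9 fell, 3 and 4 of the 22 genes, where 1.46% and 3.43% of all genes were called. The values were 1.73 for Ccl5, 1.67 for Ccl4, 1.07 for Cxcl10, -1.20 for Ccl12 and -1.16 for Ccl8. Ccl11 gave -0.52 and Ccl9 -0.88 in that fit. Ccl17 (0.68, limma adjusted p = 0.0752), Ccl27a (-0.42, adjusted p = 0.0602) and Cxcl1 (-0.48, adjusted p = 0.163) kept their direction but not the call. Within the first slide, where the spread of the lone Rb deleted array was assumed equal to that of Rb intact, the differences were the same as with the block. There Ccl5 and Ccl4 rose (adjusted p = 0.0287 and 0.0453) and Ccl12 fell (0.0362), beside 0.197% and 0.904% of all genes.

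**Figure D4:**
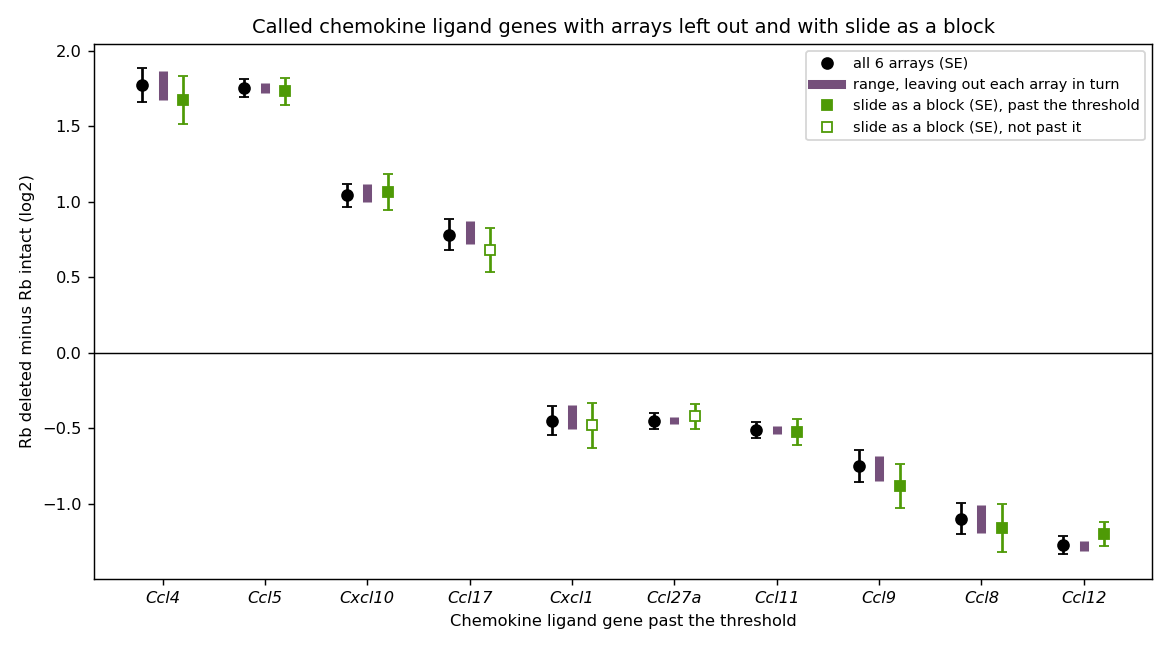
Differences (log2) of the 10 called genes over all 6 arrays (black, SE), their range when each array is left out in turn (purple bars), and with slide as a block (green squares, SE, open where not past the threshold). Every value keeps its sign, and the open squares are Ccl17, Cxcl1 and Ccl27a.

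The receptors of these ligands were mostly dim. Of 24 chemokine receptor genes with a probe, 4 passed the filter on dim probes, and 2 of them fell, beside 10.8% of all tested genes. Ackr3, an atypical receptor that takes up Cxcl12 without classical signalling, went from -0.52, -0.24 and -0.34 in Rb intact to -1.21, -1.28 and -1.26 in Rb deleted. Ackr3 fell by 0.88 ± 0.08 (limma adjusted p = 0.0013). Ackr4, a scavenger of Ccl19, Ccl21 and Ccl25, fell by 0.60 ± 0.10 (adjusted p = 0.0105). It was dim, at -5.28 to -5.01 in Rb intact and -5.86 to -5.60 in Rb deleted. The lowest level well above background was -6.54 to -5.98, depending on the array. Ccr8 and Ccrl2 gave -0.10 ± 0.17 and -0.04 ± 0.43 and did not pass the threshold (adjusted p = 0.701 and 0.951).

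Lists of signals that induce chemokines are given beside the 9.67% of all tested genes that rose and the 10.8% that fell. Of 15 cytokines and receptors 10 were tested, 1 was called higher and 1 lower, about those shares, with a median difference of 0.02. Ifnb1, which encodes interferon beta, lay at -5.88, -6.07 and -5.65 in Rb intact, where 2 of 3 arrays were well above background. It lay at -4.98, -4.62 and -4.79 in Rb deleted, with no overlap. Ifnb1 passed the filter on dim probes through the Rb deleted arrays alone, which favours a call in this direction, so its values are given as a description. The 1 gene of this list called higher was Ifnb1, so that count has the same limit. Ifngr1, a chain of the interferon gamma receptor, fell by 0.36 ± 0.07 (limma adjusted p = 0.017).

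Of 9 interferon factor genes, 3 rose and none fell, beside 9.67% and 10.8% of all tested genes, with a median of 0.21. Irf5 rose by 0.78 ± 0.11, Irf7, which amplifies the type I interferon response, by 0.35 ± 0.07, and Irf9, the DNA-binding part of the ISGF3 complex, by 0.27 ± 0.07 (limma adjusted p = 0.00585, 0.02 and 0.0367). Of 12 tested NF-kB genes 1 rose and 1 fell, about the 9.67% and 10.8% of all tested genes, with a median of 0.06. The kinase gene Chuk rose by 0.19 ± 0.05 (adjusted p = 0.0443), and Tnfaip3, the feedback inhibitor A20, fell by 0.54 ± 0.09 (adjusted p = 0.0099). Dpp4, a protease that trims several chemokines, was not tested.

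White blood cells also make many of these ligands, so their markers are given here. Of 14 leukocyte markers 12 had a probe, and 7 of these were well above background on at least 1 array. The pan-leukocyte gene Ptprc and Cd8a, Lyz2 and Tyrobp were not well above background on any array. The signal summed over the list, relative to the 75th percentile, was 3.36, 7.20 and 7.46 in Rb intact and 5.55, 5.26 and 4.97 in Rb deleted. The ranges overlapped through Rb intact 1 alone, where the myeloid gene Itgam lay at 0.73 beside 2.41 and 2.44 on Rb intact 2 and 3. Without Rb intact 1, the Rb intact sums were above all Rb deleted sums. On those arrays Itgam made up most of each sum, and Cd3e, Csf1r and Fcer1g still overlapped between groups. Itgam, Cd3e, Nkg7, Csf1r and Fcer1g were well above background on all 6 arrays. Nkg7, a gene of cytotoxic lymphocytes, was at -0.96 to -0.77 in Rb intact and -0.73 to -0.53 in Rb deleted, without overlap. Fibroblast markers summed to 300.4 to 328.4 in Rb intact and 296.9 to 316.3 in Rb deleted, and endothelial markers to 3.83 to 3.97 and 3.32 to 4.02. Both ranges overlapped. Of 8 fibroblast markers 3 were lower on all Rb deleted arrays, Lum, Col3a1 and Pdgfrb, with Lum at 4.09 to 4.24 beside 4.50 to 4.61. Of 5 endothelial markers 2 were lower there, the dim genes Vwf and Tek, each well above background on only 4 arrays. No marker of these 2 lists was higher on all Rb deleted arrays. The groups did not overlap for 45.2% of all tested genes. Basal markers summed to 1.73 to 1.86 and 1.42 to 1.61, and luminal markers to 10.93 to 12.16 and 9.38 to 10.86, both lower in Rb deleted without overlap. The part of these markers in the differences above was not tested.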

How the data were processed

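Expression was measured on 6 one-colour Agilent arrays. Per the file headers, the authors deposited intensity values made with Agilent Feature Extraction 11.0.1.1; the submitters' processing notes name 10.7.3.1. The deposited processed intensity is background-subtracted and not scaled between arrays, and the deposited files also carry a well-above-background flag. The authors deposited a table of log2 values with unstated centring; its columns (medians -0.52 to -0.49) equalled the log2 processed intensity minus a constant, within 0.01, for 100% of shared probes.

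Of 43020 non-control spots, outlying ones were left out and the rest averaged to 39429 probes. The 75th percentile of log2 intensity over all non-control spots was subtracted per array. Probes well above background on all 3 arrays of a group (23045) were kept, named through RefSeq accessions (assembly GRCm38.p6, 27427 probes matched), and each gene took its passing probe with the highest mean. The array was designed on mm9, so that table gave only names and gene order. Both groups were fitted over 13728 genes (limma 3.58.1, R 4.3.3) with no block, and the fit was tested on simulated data. The rule for named genes covered every tested member and the called genes of each pathway list; others were chosen after their values were seen. The members and lists were chosen with earlier results of these data known. The number of arrays limits the precision. Some items are not reported here.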

Additional observations from a re-analysis of the deposited data

Results flagged for a closer look

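Ccl1, a Ccr8 ligand that did not pass the filter on dim probes, was well above background on Rb deleted 3, at -2.97 relative to the array's 75th percentile. On the other 5 arrays it lay between -8.67 and -8.18 and was not well above background. Ccl28, a mucosal ligand that also did not pass the filter, was well above background on Rb deleted 2, at -5.64, beside -6.41 to -6.05 on the other arrays. Each was listed for signal well above background on a single Rb deleted array and on no Rb intact array. Lying above the Rb intact arrays is thus no separate result. The mirror case, Ccl24 with signal on an Rb intact array only, is described above. These probes entered no comparison, so no difference between the groups is drawn from them.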

How the results depend on the processing

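The 4 rises and 6 falls were recomputed under 19 other fits and a threshold of 0.01. No called gene changed direction. Counts stayed within 1.5 times of 4 and 6 except within the first slide, where 2 genes rose and 1 fell. Leaving out each array in turn gave 4 to 5 rises and 5 to 7 falls. Blocking on the replicate number left 4 rises and 5 falls, and the call of Cxcl1 was lost (adjusted p = 0.0558); same-numbered samples did not deviate together (correlations of -0.05 to 0.02), so the numbers were not taken as pairs. Ccl5, Ccl4 and Ccl12 were past 0.05 in all 19 fits. With normexp on median signal, Ccl4 gave 1.22 against 1.77 and Ccl17 gave 0.51 against 0.78. The array number and probes near background limit the dim genes, among them Ccl4, Ccl9, Ccl17, Cxcl9 and the receptor gene Ackr4. Over all genes, 1327 rose and 1479 fell as reported. These counts moved by over 1.5 times without a filter (611 and 880), with array weights (3568 and 3300), with the replicate block (700 and 963), with a term for slide (201 and 471) and on the first slide alone (27 and 124). Leaving out single arrays gave 457 to 2625 rises and 788 to 2487 falls, the highest without Rb intact 1 and the fewest rises without Rb deleted 2.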
